A study of Mus musculus with 6 samples.

Results

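The genes described here encode the subunits of oxidative phosphorylation, and they were taken from an expression study of mouse pluripotent stem cells on Illumina bead arrays. A probe was included when its gene name in the deposited table began with NDUFA, NDUFB, NDUFC, NDUFS, NDUFV, SDHA, SDHB, SDHC, SDHD, UQCR, COX4, COX5, COX6, COX7, COX8 or ATP5. This gave 119 of 45281 probes, for 81 gene names. The 6 arrays covered 3 lines with 2 arrays each, all of strain B6: embryonic stem cells (ES), induced pluripotent stem cells with the construct PB-Oct4.2A.cherry (iPS), and the clone cl2.5 with a construct of the same name, which the labels mark as low (low iPS). Both iPS lines carry a minus/minus sign whose gene the labels do not name, and every line grew in serum replacement medium with LIF, CHIR99021 at 3 µM and PD0325901 at 1 µM. Each kind of cell is 1 line, so differences between lines cannot be told apart from differences between kinds of cell.

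Oxidative phosphorylation takes place in the inner mitochondrial membrane. Complex I takes electrons from NADH and complex II from succinate, complex III passes them to cytochrome c, and complex IV hands them to oxygen, while protons are pumped outwards at complexes I, III and IV. Complex V, the ATP synthase, makes ATP as the protons flow back. Most subunits are encoded in the nucleus and a few in mitochondrial DNA. Naive mouse stem cells, the state that LIF with both inhibitors maintains, are known to respire as well as to use glycolysis, whereas primed cells lean on glycolysis.

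The promoters of these genes are shown first because each of 4 motifs matched a larger share of them than of all promoters. The window runs from 250 bases before to 50 after the transcription start (RefSeq, GRCm38.p6), and 66 of the 81 genes were matched, with 72 promoters. The 4 motifs searched on both strands were GCATGCGC for NRF1, CCGGAAG for ETS factors such as GABPA, AANATGGC for YY1 and AAGGTCA for the estrogen-related receptors Esrra and Esrrb. Matches may overlap one another, and each motif was counted by itself. The NRF1 motif was in 13.9% of the 72 promoters, against 2.71% of all 32851 promoters in the table and 3.52% of those of protein-coding genes. For the ETS motif the shares were 22.2%, 8.86% and 11.6%, for the YY1 motif 26.4%, 6.05% and 6.37%, and for the receptor motif 9.72%, 4.72% and 4.08%. Of the 72 promoters, 31 held none of the 4 motifs, 32 held 1, 7 held 2 and 2 held 3. A match is a run of letters, not a site shown to be bound.

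**Figure D1:**
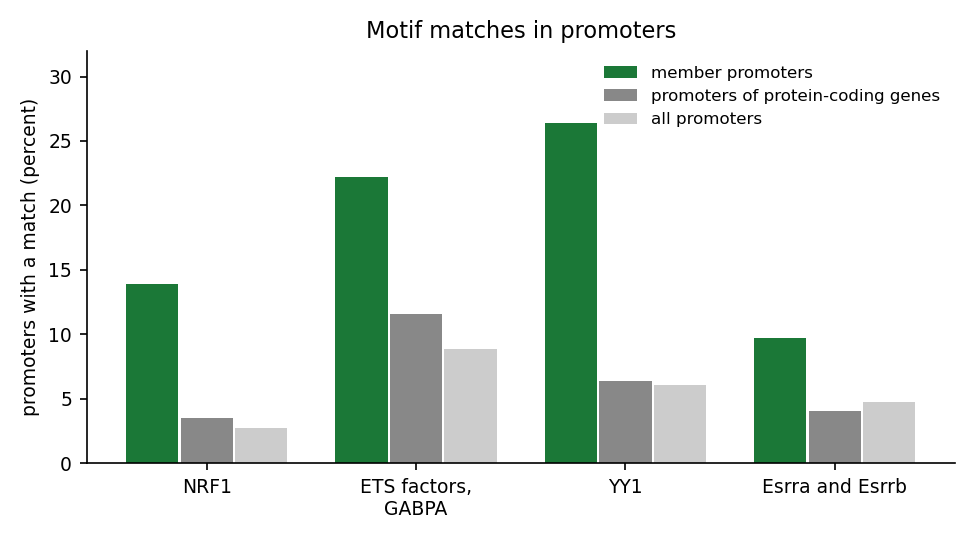
Percent of promoters with at least 1 match to each motif, for the 72 promoters of the oxidative phosphorylation genes, the promoters of protein-coding genes and all promoters of the RefSeq table. The bars for the YY1 motif stand at 26.4%, 6.37% and 6.05%.

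Promoters of 1 subunit each of complexes I, IV and V with matches are printed below, with matches in capitals, followed by those of Cox7a1 and Cox6b2, the complex IV isoform genes at both ends of the differences between low iPS and iPS within that complex. Neither isoform promoter held a match. The same was true of 31 of the 72 promoters, and in complex IV of those of Cox5a, Cox5b, Cox7a2 and Ndufa4 among others. In that complex Cox6a1, Cox6b1 and Cox7b held matches. In Atp5l the matches begin at base 11 (NRF1), 39 and 275 (ETS) and 238 (receptor), counted from the left end. In Cox6a1 they begin at 89 and 91 (NRF1 on both strands, overlapping) and 235 (ETS), and in Ndufs8 at 86 (YY1) and 266 (ETS). The coordinates are chr19:3912725-3913024 on the minus strand for Ndufs8, chr5:115348909-115349208 on the minus strand for Cox6a1 and chr9:44920693-44920992 on the minus strand for Atp5l. Those of Cox7a1 are chr7:30183921-30184220 on the plus strand, and those of Cox6b2 are chr7:4753045-4753344 on the minus strand.
Ndufs8: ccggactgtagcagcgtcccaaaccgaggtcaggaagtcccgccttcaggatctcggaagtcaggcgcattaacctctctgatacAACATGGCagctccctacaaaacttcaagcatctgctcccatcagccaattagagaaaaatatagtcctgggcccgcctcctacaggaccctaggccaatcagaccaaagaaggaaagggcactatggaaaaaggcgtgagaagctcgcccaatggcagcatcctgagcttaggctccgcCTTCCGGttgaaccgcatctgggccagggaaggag
Cox6a1: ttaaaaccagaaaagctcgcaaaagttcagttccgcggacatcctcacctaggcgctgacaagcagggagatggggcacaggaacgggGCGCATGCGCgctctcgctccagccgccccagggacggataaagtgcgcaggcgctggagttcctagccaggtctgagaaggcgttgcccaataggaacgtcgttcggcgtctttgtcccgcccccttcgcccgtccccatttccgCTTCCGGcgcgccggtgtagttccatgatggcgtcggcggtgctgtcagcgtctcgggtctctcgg
Atp5l: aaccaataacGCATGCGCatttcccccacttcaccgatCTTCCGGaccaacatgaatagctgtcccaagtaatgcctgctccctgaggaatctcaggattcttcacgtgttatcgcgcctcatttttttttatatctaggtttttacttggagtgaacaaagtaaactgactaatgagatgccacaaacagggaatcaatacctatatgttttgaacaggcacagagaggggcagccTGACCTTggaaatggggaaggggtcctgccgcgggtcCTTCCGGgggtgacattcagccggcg
Cox7a1: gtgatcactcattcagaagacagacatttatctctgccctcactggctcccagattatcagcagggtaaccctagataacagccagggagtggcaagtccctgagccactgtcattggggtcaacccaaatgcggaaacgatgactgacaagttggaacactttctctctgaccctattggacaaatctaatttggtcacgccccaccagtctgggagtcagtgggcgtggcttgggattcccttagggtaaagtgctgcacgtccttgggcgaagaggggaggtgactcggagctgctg
Cox6b2: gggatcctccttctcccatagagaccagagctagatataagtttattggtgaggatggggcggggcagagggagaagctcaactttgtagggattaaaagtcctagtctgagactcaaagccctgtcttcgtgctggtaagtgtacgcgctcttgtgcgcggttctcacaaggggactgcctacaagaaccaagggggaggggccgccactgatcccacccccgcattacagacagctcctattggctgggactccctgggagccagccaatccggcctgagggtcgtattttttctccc

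Most of the machinery was expressed in every line. Of the 119 probes, 93 were detected on all 6 arrays (detection p under 0.05, against the negative controls of the array), 18 on none and 4 on 1 array. A probe was kept for testing when it was detected on at least 2 arrays, which left 97 probes for 72 genes. The kept probes are 44 of 51 for complex I, 4 of 8 for complex II, 5 of 8 for complex III, 15 of 21 for complex IV and 21 of 23 for complex V. The last 8, all kept, are 2 probes of assembly factors of complex I (Ndufaf1, Ndufaf2) and 6 of genes whose names share a prefix but whose products are not subunits or not certainly so (Emc8, Dmac2l, Dmac2, Cox7a2l). Just inside the filter lay a probe of Ndufb11 detected on 2 arrays and that of Cox4i2, the lung form of subunit IV, on 3. Just outside lay probes of Cox6a2, Cox6b2, Ndufab1 and Sdhb, each detected on 1 array.

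The 9 genes without a kept probe were of different kinds. Cox6a2 and Cox8b encode heart and skeletal muscle forms of complex IV subunits, Cox8c a testis form, and Cox7b2 is a paralog of Cox7b. Ndufs1, the largest core subunit of complex I, Sdha, the flavoprotein of complex II, Uqcrfs1, the Rieske iron-sulfur protein of complex III, Uqcrq of complex III and Ndufab1, the mitochondrial acyl carrier protein, are needed in all respiring cells. The deposited intensities of the 2 Sdha probes lay between 74.1 and 102.8 on the 6 arrays, where the median probe of an array lay between 87.3 and 96. For these genes the probes give no measurement, and nothing follows about their RNA.

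No probe of the 97 passed the test in any comparison. In low iPS against iPS, 0 of 97 were called by limma at an adjusted p under 0.05, where 1.93% of all 18175 kept probes were. For low iPS against ES the share of all kept probes called was 3.98% and in iPS against ES 0.715%, again with 0 of 97. At an unadjusted p under 0.05, limma gave 5 member probes in low iPS against iPS (5.15%, against 15.8% of all kept probes), 4 in low iPS against ES (4.12% against 18.9%) and 1 in iPS against ES (1.03% against 13.9%). The lowest adjusted p of a member was 0.128, 0.19 and 0.339 in the same order.

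The intervals say how large a difference could have been missed. A difference is the mean normalised log2 intensity of one line minus that of the other, and its median SE over the members was 0.20, which gives a 95% interval of 0.46 to either side (1.37-fold). The whole interval lay within 1 log2 unit of 0, that is within 2-fold, for 88 of 97 probes in low iPS against iPS (90.7%, against 76.5% of all kept probes). It did so for 91 in low iPS against ES and 91 in iPS against ES (93.8% each, against 74% and 77.8%). Differences of 0.5 or more in size were found for 8, 3 and 1 of the 97 probes. Over all kept probes, the 0.1 and 0.9 quantiles of the difference were -0.46 and 0.49 in low iPS against iPS. They were -0.52 and 0.52 in low iPS against ES, and -0.47 and 0.45 in iPS against ES. The replicate SD of the members had a median of 0.16, against 0.21 for all kept probes.

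**Figure D2:**
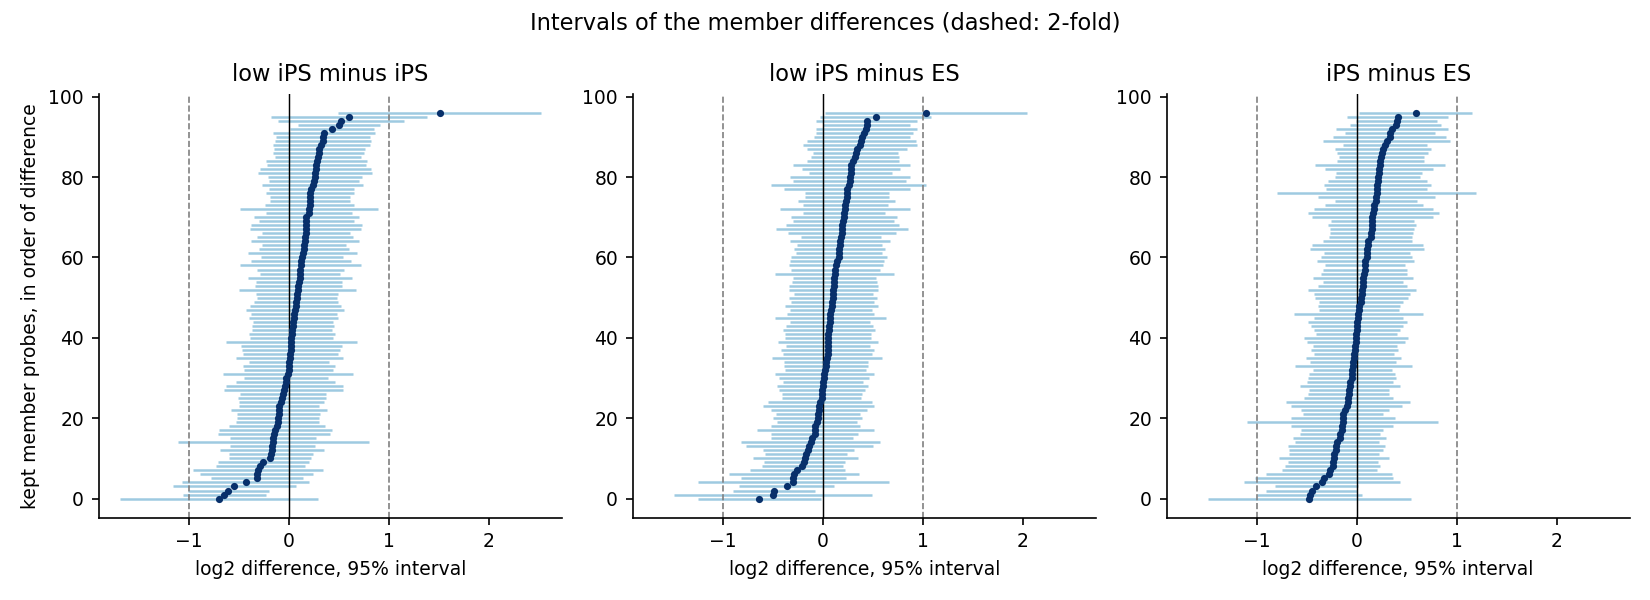
Difference of mean log2 intensity (points) with its 95% interval (bars) for the 97 kept probes, in order of the difference, in the 3 comparisons. Dashed lines mark 2-fold, and the intervals of 88, 91 and 91 probes lie between them.

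Small shifts in the middle of the distribution were seen. Against ES, low iPS had 69 of 97 probes above 0 (71.1%, against 48.5% of all kept probes), with a median of 0.09, against -0.01 for all kept probes. Against iPS, it had 64 above 0 (66%, against 48.4%), with a median of 0.07 against -0.01. In iPS against ES, 55 were above 0 (56.7%, against 50%), with a median of 0.03, but under median centring 38 were above 0 (median -0.036) and without iPS replicate 2 41 were (median -0.021). The median over members of each array's deviation from the probe mean was -0.01 and -0.05 on the ES arrays, -0.06 and 0.05 on the iPS arrays, and 0.02 and 0.07 on the low iPS arrays. The arrays of iPS therefore spanned most of the range, and both low iPS arrays lay above both ES arrays. Without iPS replicate 1 the median of low iPS against iPS was -0.01. The comparisons share arrays. A log2 difference of this size is below the SE of any single member, which is not the error of a median over members. The replicate SD of the per-array median over members was 0.05, from 2 arrays per line.

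**Figure D3:**
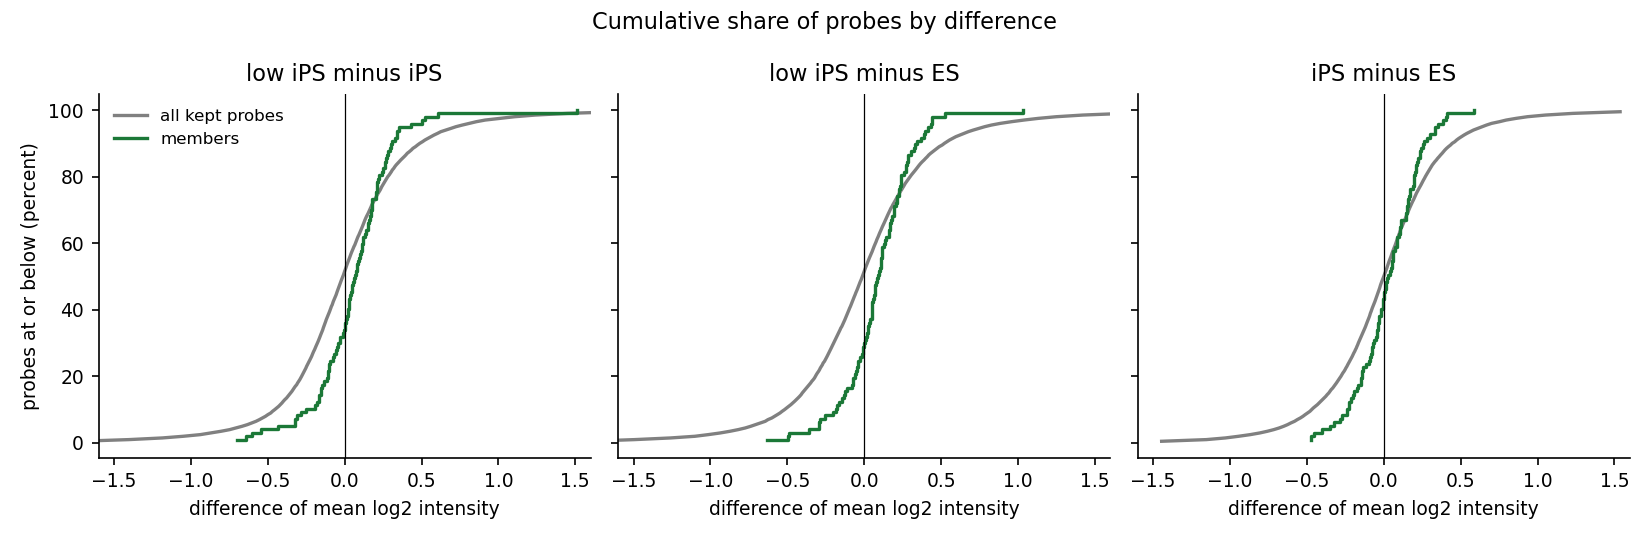
Cumulative percent of probes by difference of mean log2 intensity, for the 97 members (green) and all 18175 kept probes (grey). The member curves are steeper around 0, with medians of 0.07, 0.09 and 0.03 against -0.01, -0.01 and 0.00.

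Arrays of the lines often did not overlap, but no more often than elsewhere in the table apart from 1 direction. Both low iPS arrays lay above both iPS arrays for 21 probes (21.6%, against 23.8% of all kept probes) and below for 16 (16.5% against 24.6%). Against ES they lay above both arrays for 29 (29.9% against 23.8%) and below for 10 (10.3% against 26%). In iPS against ES the counts were 18 (18.6% against 20.8%) and 14 (14.4% against 21.3%). No share was tested against the table.

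Complex I, the largest complex, had 30 of 44 probes above 0 in low iPS against iPS, 36 in low iPS against ES and 28 in iPS against ES, with medians of 0.07, 0.15 and 0.08. The values of 4 core subunits follow. Ndufv1, which holds the NADH site, had normalised log2 intensities of 12.45 and 12.38 for ES, 12.30 and 12.37 for iPS, 12.17 and 12.29 for low iPS. Both low iPS arrays lay below both arrays of each other line, by a difference of -0.11 ± 0.17 (SE, n = 2 arrays per line) against iPS and -0.19 ± 0.17 against ES, with limma adjusted p of 0.825 and 0.637. Ndufs3, Ndufs7 and Ndufs8, other core subunits, gave 0.08, 0.03 and 0.18 against iPS.

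Ndufa1, a small membrane subunit encoded on chromosome X, had the lowest value of complex I in low iPS against iPS. Its deposited intensities were 4386 and 4712 for ES, 5100 and 6250 for iPS, 4054 and 4113 for low iPS. After normalisation the log2 values were 12.10 and 12.11 for ES, 12.45 and 12.56 for iPS, 11.86 and 11.95 for low iPS, so the 3 lines did not overlap. The difference was -0.61 ± 0.17 in low iPS against iPS (1.52-fold, adjusted p = 0.14), 0.40 ± 0.17 in iPS against ES (adjusted p = 0.363) and -0.20 ± 0.17 in low iPS against ES (adjusted p = 0.599). With no background correction the first had a limma adjusted p of 0.0493, the lowest of its 14 alternatives, whose p ran up to 0.497.

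Values for the rest of chromosome X stand beside this gene. The 438 kept probes of chromosome X had a median of -0.46 in low iPS against iPS, where 13.7% were above 0, against 48.4% of all kept probes. The median was 0.31 in iPS against ES, with 82% above 0 against 50%, and -0.12 in low iPS against ES, with 34.5% against 48.5%. Of the 438, 2 were called higher and 29 lower in the first comparison, 1 and 0 in the second, and 4 and 21 in the third. The shares of all kept probes called higher and lower were 0.974% and 0.952%, 0.369% and 0.347%, and 2.27% and 1.72%, in that order. The group was not tested. The brighter probe of Ndufb11, another X-linked subunit of the membrane arm, gave 0.59 ± 0.24 in iPS against ES (adjusted p = 0.339), -0.32 ± 0.24 in low iPS against iPS and 0.27 ± 0.24 in low iPS against ES. Its deposited intensities were only 123.3 to 176.3, and the dimmer probe gave 0.16, 0.12 and 0.27. Cox7b, an X-linked subunit of complex IV, gave 0.28 ± 0.18, -0.16 ± 0.18 and 0.12 ± 0.18 in the same order. The 4 kept member probes of chromosome X had medians of 0.34 in iPS against ES, -0.24 in low iPS against iPS and 0.19 in low iPS against ES, the last opposite in sign to that of the chromosome. The other 93 had 0.02, 0.07 and 0.08. The part of the chromosome in the values of Ndufa1 was not tested.

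Other complex I members at the ends of the range were dim or split between probes. Ndufb8, a subunit of the membrane arm, gave -0.63 ± 0.27 in low iPS against ES on a probe with intensities from 107.2 to 138.7, and 0.10 on its bright probe. Ndufb4 gave 0.60 ± 0.34 in low iPS against iPS, from intensities of 92.5 and 131.2 (iPS) and of 130.2 and 141.7 (low iPS). Ndufa5, of the peripheral arm, gave 0.52 ± 0.27 on its dim probe and 0.31 on its bright one in that comparison, and its bright probe gave -0.45 ± 0.20 in iPS against ES. Ndufb2 was the lowest member of complex I in iPS against ES, at -0.47 ± 0.23. Ndufc1 gave 0.43 ± 0.18 on one probe and 0.10 on the other in low iPS against iPS. Ndufs6, which carries a zinc site, was the highest in low iPS against ES, at 0.44 ± 0.19 on one probe and 0.11 on the brighter. Both probes of Ndufa3 gave similar values there, 0.41 and 0.39. None of these passed. Of the other probes with the smallest p, Ndufa7 gave 0.34 and Ndufa11 -0.32 in low iPS against iPS, Ndufa9 -0.25 and Ndufb2 -0.29 in low iPS against ES, and Ndufa11 0.39 and Ndufs4 0.33 in iPS against ES.

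Complex II and complex III were measured by few probes. In complex II the Sdhb probes, for the iron-sulfur subunit, gave 0.11 and 0.28 in low iPS against iPS and -0.03 and 0.34 in low iPS against ES, and the Sdhc and Sdhd probes, for the membrane anchors, gave 0.12 and -0.31 in the former. The complex spanned -0.14 to 0.06 in iPS against ES. In complex III all 5 kept probes were below 0 in low iPS against ES, from -0.17 (Uqcrh) to -0.01 (Uqcr11), with a median of -0.11. Uqcrc1 and Uqcrc2, the core proteins, were at -0.11 ± 0.18 and -0.05 ± 0.19. Uqcrc1 had log2 intensities of 11.78 and 11.66 for ES, 11.52 and 11.62 for iPS, 11.60 and 11.62 for low iPS. Both ES arrays lay above the other 4. Uqcrb had the lowest value in iPS against ES, -0.33 ± 0.30, and the highest in low iPS against iPS, 0.20 ± 0.30, with iPS arrays at 8.09 and 7.28.

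Complex IV held the widest spread, from -0.64 to 1.51 in low iPS against iPS, both ends being tissue-restricted isoforms. Its median was 0.14 in that comparison, 0.12 in low iPS against ES and -0.01 in iPS against ES. Without iPS replicate 1 the first was -0.03, and complexes II and V also changed sign, to -0.06 and -0.01.

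Cox7a1, the heart and skeletal muscle form of subunit VIIa, differed most of all 97 probes. Its deposited intensities were 1075 and 1746 for ES, 617.6 and 1421 for iPS, 2093 and 3734 for low iPS. The normalised log2 values were 9.99 and 10.62 for ES, 9.28 and 10.38 for iPS, 10.87 and 11.81 for low iPS, so both low iPS arrays lay above all 4 others, and ES and iPS overlapped. The difference was 1.51 ± 0.44 in low iPS against iPS (2.84-fold, 95% interval 0.50 to 2.52, adjusted p = 0.142). Against ES it was 1.03 ± 0.44 (2.05-fold, interval 0.02 to 2.05, adjusted p = 0.254), and in iPS against ES -0.47 ± 0.44 (adjusted p = 0.694). Its replicate SD, 0.64, was the largest of the 97, and 2.16% of all kept probes had a larger one. In each line the array numbered 2 was brighter than that numbered 1, by 1.10 in iPS, 0.93 in low iPS and 0.63 in ES. Without one array in turn the difference ran from 0.96 to 2.06 against iPS and from 0.57 to 1.501 against ES. The lowest value against iPS arose without iPS replicate 1, and the probe did not pass with any array left out. Over the 14 alternatives its limma adjusted p ran from 0.00824 to 0.606 against iPS and from 0.021 to 0.738 against ES, and it passed in 1 of them, with the replicate number as a block (SE 0.19). Cox7a2, the form found in most tissues, gave 0.02 ± 0.21 in both comparisons.

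Cox6b2, the testis form of subunit VIb, went the other way on tight replicates. Its deposited intensities were 493.3 and 588.3 for ES, 516.6 and 575.3 for iPS, 395.6 and 403.2 for low iPS. The log2 values were 8.73 and 8.92 for ES, 8.998 and 8.96 for iPS, 8.29 and 8.38 for low iPS, with both low iPS arrays below all 4 others. The difference was -0.64 ± 0.18 in low iPS against iPS (adjusted p = 0.128) and -0.49 ± 0.18 in low iPS against ES (adjusted p = 0.19), the lowest adjusted p of any member in either. A second probe of the gene was detected on 1 array. Cox6b1, the general form of the same subunit, gave 0.43 and 0.44 on its 2 probes in low iPS against ES (adjusted p = 0.338 and 0.331). On those 2 probes it gave 0.02 and 0.24 in low iPS against iPS, and 0.41 and 0.20 in iPS against ES. Both low iPS arrays lay above both ES arrays on each probe.

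**Figure D4:**
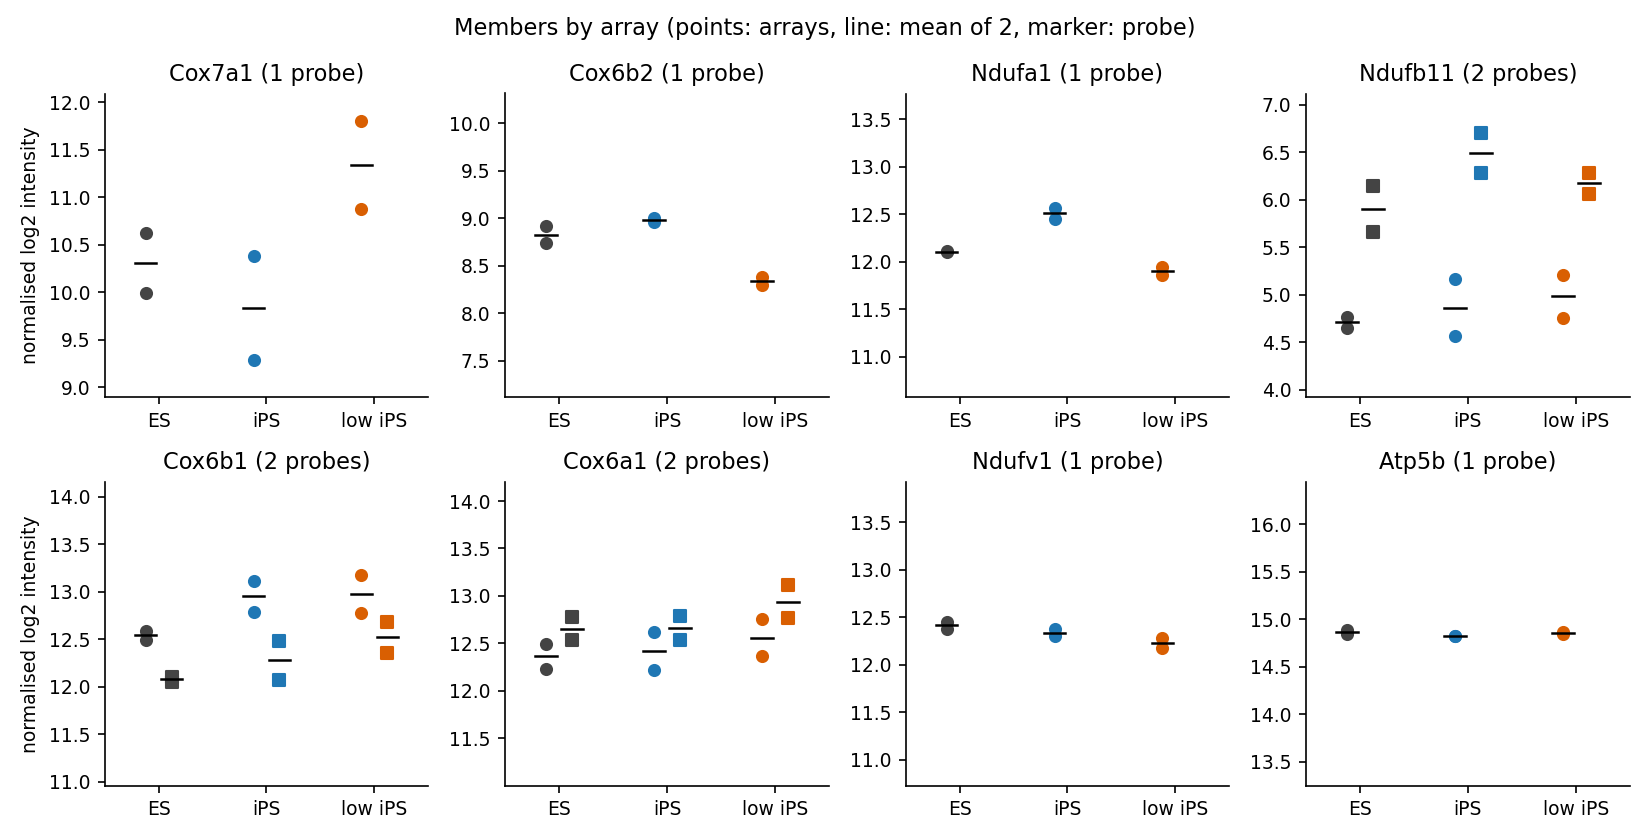
Normalised log2 intensity on each array (points), with the mean of the 2 arrays of a line (bars), for 8 genes, every panel spanning the same range of log2 units. Low iPS is above all other arrays for Cox7a1 and below them for Cox6b2 and Ndufa1, while the 6 arrays of Atp5b lie between 14.82 and 14.89.

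The general subunits of complex IV differed by less. Cox4i1, the regulatory subunit IV, had log2 values of 13.99 and 14.04 for ES, 13.65 and 13.90 for iPS, 13.91 and 14.15 for low iPS, with both iPS arrays below the other 4 and a largest difference of 0.25 ± 0.19. Cox5a gave 0.35 ± 0.22 in low iPS against iPS and 0.21 ± 0.22 against ES, with both low iPS arrays above the other 4 and the dimmest array being iPS replicate 1. Cox5b, which binds zinc, gave 0.15 and 0.11 against iPS. Ndufa4, first described in complex I and now placed with complex IV, gave -0.36 ± 0.21 in low iPS against ES, and Cox6c 0.37 ± 0.25. Cox4i2 was near background, with arrays from 85.8 to 141.5.

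In complex V the catalytic beta subunit, Atp5b, was the steadiest, with log2 values of 14.84 and 14.89 for ES, 14.82 and 14.82 for iPS, 14.87 and 14.84 for low iPS. Its 95% interval in low iPS against iPS was -0.36 to 0.43. The probe is very bright, at deposited intensities of 27147 to 31730, where quantile normalisation leaves little room between arrays. Atp5c1, the gamma subunit, and Atp5d, the delta subunit, gave 0.10 and -0.03 in low iPS against iPS, and Atp5a1, the alpha subunit, gave 0.27 ± 0.24. Of the c-ring genes, Atp5g2 and Atp5g3 gave 0.15 and 0.08, and Atp5g2 was the highest of complex V in low iPS against ES, at 0.24. The probe of Atp5k, the e subunit, was dim, at -0.43 for low iPS against iPS, and was the highest of complex V for iPS against ES, at 0.30. Atp5o, the stalk subunit that confers oligomycin sensitivity, had 9.43 and 9.54 for ES, 9.01 and 9.15 for iPS, 9.55 and 9.60 for low iPS on 1 of its 3 probes. On that probe iPS lay below both other lines, with differences of 0.50 ± 0.18 for low iPS against iPS (adjusted p = 0.227) and -0.40 ± 0.18 for iPS against ES (adjusted p = 0.367), while its brightest probe gave 0.11 and -0.17. Atp5j, a coupling factor, ranged from -0.70 ± 0.43 on a dim probe to 0.21 on a bright one in low iPS against iPS, the widest gap between probes of 1 gene.

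**Figure D5:**
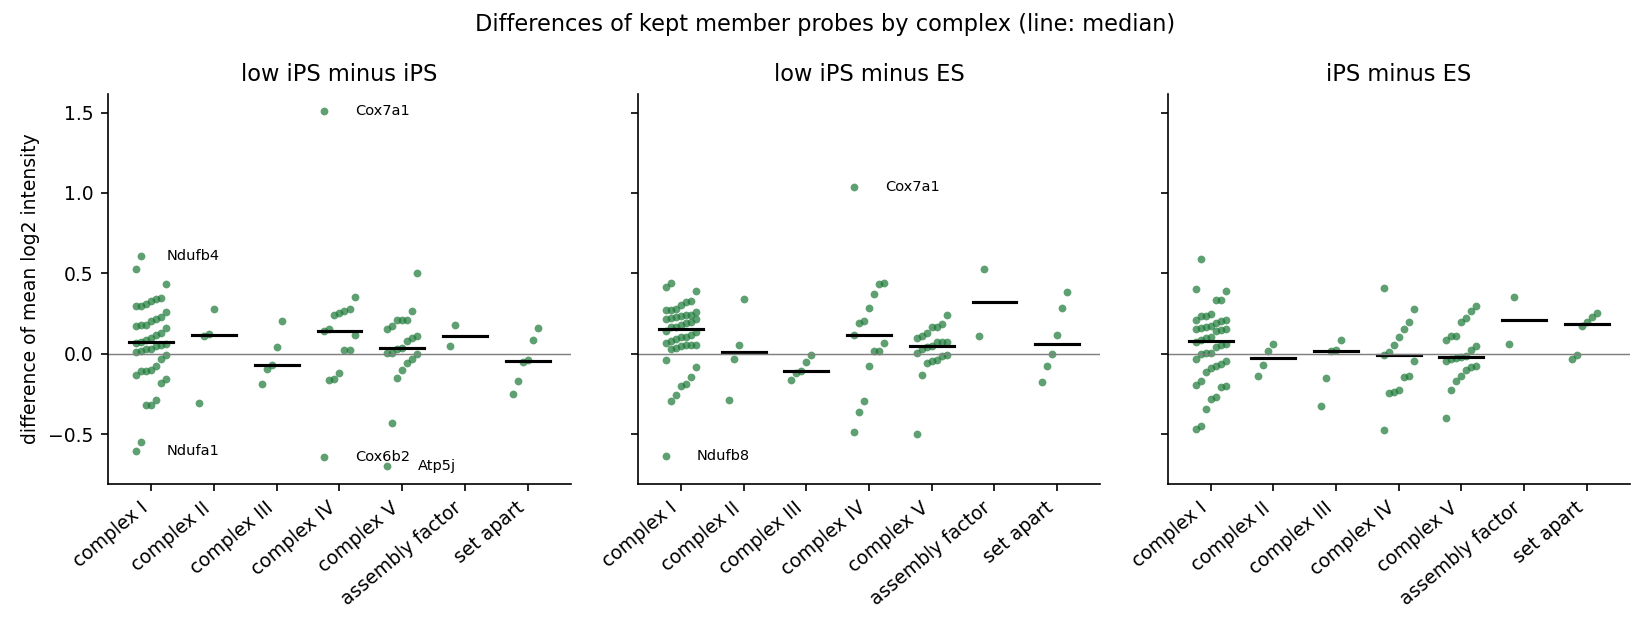
Difference of mean log2 intensity of each kept probe (points) by complex, with the median of the complex (bars), in the 3 comparisons. Complex IV holds the widest range, -0.64 to 1.51 in low iPS against iPS, and names mark probes beyond 0.6.

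Probes of 1 gene can be set beside one another, though a gap between them is not the error of a difference between lines. Of 20 genes with several kept probes, 6 had probes on both sides of 0 in low iPS against iPS, 7 in low iPS against ES and 4 in iPS against ES. These were Atp5j, Atp5l, Atp5pb, Ndufb8, Ndufb11 and Ndufs4 in the first, Atp5j, Atp5o, Atp5pb, Cox5b, Ndufa5, Ndufb8 and Sdhb in the second, and Atp5j, Atp5pb and Sdhb among those in the third. The widest gap within a gene was 0.91, 0.73 and 0.43. Some probes on both sides of 0 hardly differed, as for Atp5l in low iPS against iPS, at -0.002 and 0.004. The 4 probes of Ndufs4, a subunit of the peripheral arm, spanned -0.29 to 0.07 in low iPS against iPS. Probes of 1 gene share its RNA and are not replicates. Probe sequences were not used here, and whether a probe also reads processed copies of these genes, of which the mouse genome has many, was not tested.

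The assembly factors among the members, Ndufaf1 and Ndufaf2 of complex I, gave 0.05 ± 0.19 and 0.18 ± 0.24 in low iPS against iPS, and 0.11 ± 0.19 and 0.53 ± 0.24 in low iPS against ES. Of 25 further assembly factor genes with 40 kept probes, 1 probe rose in low iPS against iPS and 3 in low iPS against ES, and none fell. Cox19, a copper-handling factor of complex IV assembly, rose by 1.07 ± 0.18 against iPS (limma adjusted p = 0.0336) and 0.99 ± 0.18 against ES (adjusted p = 0.0288). Its log2 values were 9.37 and 9.22 for ES, 9.14 and 9.28 for iPS, 10.22 and 10.35 for low iPS. Tmem70, needed to assemble the ATP synthase, rose by 1.07 ± 0.17 against ES (adjusted p = 0.0189), and Tmem126b, a complex I factor, by 0.97 ± 0.18 (adjusted p = 0.0301). Tmem70 and Tmem126b gave 0.36 and 0.80 in iPS against ES, and 0.71 and 0.17 in low iPS against iPS, none passing. The list's median was 0.06 in low iPS against iPS, 0.19 in low iPS against ES and 0.14 in iPS against ES.

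Of all kept probes, 0.974% were called higher and 0.952% lower in low iPS against iPS, 2.27% and 1.72% in low iPS against ES, and 0.369% and 0.347% in iPS against ES. Of 112 kept probes of the mitochondrial ribosome, 0 passed in low iPS against iPS (7 at an unadjusted limma p under 0.05), 5 rose in low iPS against ES and 1 in iPS against ES, and none fell. Mrps27, of its small subunit, rose by 1.71 ± 0.24 in low iPS against ES and by 1.92 ± 0.24 in iPS against ES (adjusted p = 0.0115 and 0.0167). Of the 3 kept probes of Mrpl48, of the large subunit, 2 rose in low iPS against ES, by 1.19 ± 0.18 and 1.06 ± 0.17, and the other gave 0.36 ± 0.19 (adjusted p = 0.378). Mrpl27 rose there by 0.94 ± 0.19. One probe of Mrpl10 rose by 0.97 ± 0.18, while its other probe gave -0.25 ± 0.20 (adjusted p = 0.566). In iPS against ES these 2 Mrpl48 probes gave 0.97 and 0.94, Mrpl27 1.01 and the Mrpl10 probe that rose 0.89, none passing. In low iPS against iPS the same probes gave 0.23, 0.12, -0.06 and 0.08. No probe passed among 22 of the citric acid cycle, 24 of electron carriers and ATP exchange, 30 of mitochondrial DNA copying and transcription, or 9 of transcriptional regulators. At an unadjusted limma p under 0.05 these 4 lists had 5, 2, 1 and 2 probes in low iPS against iPS, 0, 7, 0 and 0 in low iPS against ES, and 2, 5, 2 and 1 in iPS against ES, where the shares of all kept probes were 15.8%, 18.9% and 13.9%. The medians of the citric acid cycle were 0.18, -0.01 and -0.26 in that order of comparisons.

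Of the factors whose motifs were counted above, Nrf1, Gabpa, Esrra and Yy1 are on the list of regulators, and Esrrb is on that of pluripotency markers. Yy1 had no kept probe. Nrf1 gave -0.88 ± 0.32 in low iPS against iPS (adjusted p = 0.237), Gabpa 0.40 ± 0.20 (adjusted p = 0.386), and the 2 probes of Esrra -0.36 and -0.19. Esrrb gave -0.43 ± 0.18 (adjusted p = 0.293). Tfam, which packs and transcribes mitochondrial DNA, gave -0.145 and -0.165 on its 2 probes.

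Replicate arrays correlated across kept probes at 0.982 in iPS, 0.988 in low iPS and 0.980 in ES. All 9 pluripotency markers were detected on all 6 arrays. The 2 probes of Pou5f1, which encodes Oct4, fell in low iPS against iPS, with differences of -1.70 ± 0.18 and -2.07 ± 0.17, and also passed as lower in both comparisons with ES. Of 10 fibroblast and feeder markers, 6 were detected on no array, Col1a1 and Col3a1 among them. The summed intensity over the list's 23 probes was 2001 to 3210 on the arrays. Sums of marker lists are of deposited intensities, with background not removed. Acta2, a smooth muscle and myofibroblast actin, fell in low iPS against ES on 1 of its 4 kept probes (-3.83 ± 0.83, adjusted p = 0.0496) and gave -2.67 ± 0.83 in low iPS against iPS (adjusted p = 0.17). That probe was brightest on ES array 2, at a log2 value of 9.83, the array with the highest sum. Thy1 went the other way, at 0.72 ± 0.47 against iPS and 0.91 ± 0.47 against ES, as did Pdgfra at 0.24 and 0.14. Col1a2 gave -0.31 and -0.17, and none of these 3 genes passed. Of 6 extraembryonic endoderm markers, Gata4, Sox17 and Foxa2 were detected on no array, and the summed intensity was 1689 and 2178 in low iPS against 1221 to 1329 elsewhere. In low iPS against iPS, Dab2 rose by 3.22 ± 0.28 and 2.48 ± 0.29 on 2 of its 3 kept probes (adjusted p = 0.00306 and 0.00915), the third giving 0.10, and Gata6 rose by 2.00 ± 0.33 (adjusted p = 0.0293). Against ES the same probes rose by 2.77, 2.18 and 2.28 (adjusted p = 0.00331, 0.00824 and 0.0117). Sox7, the remaining marker of the list, gave -0.23 for low iPS against iPS and -0.02 against ES, and did not pass. The sum over 6 trophectoderm markers was 6702 and 7406 in low iPS against 2851 to 4064 elsewhere. Among the list's 7 kept probes, 5 were above 0 in low iPS against iPS and 6 in low iPS against ES. None passed in either. The brightest probe, of Tfap2c, had log2 values of 11.80 and 12.13 in low iPS. It gave 1.17 ± 0.30 against iPS (limma adjusted p = 0.102). Cdx2 and Gata3 gave -0.46 and -0.73 there, and Elf5 was detected on no array. Gata3 rose in iPS against ES by 2.00 ± 0.30 (adjusted p = 0.0359). The part of other cell types in the values of Cox7a1 and Cox6b2 was not tested, and fewer cells of a type and less RNA per cell cannot be told apart in bulk RNA.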

How the data were processed

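The members and lists were chosen with earlier results of these data known. Per the file headers, the deposited table holds the mean intensity of the beads of a probe, array by array. A detection p-value stands beside every intensity the authors deposited. The intensities were deposited without normalisation between arrays, and the software that made them is not given in the sources used here. Per the labels, RNA was column-purified, amplified and biotin-labelled. Both arrays of a line are biological replicates per the design text, with no word on separate cultures.

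The function nec of limma 3.58.1 (R 4.3.3) removed background using the detection p-values (offset 16) before log2 and quantile normalisation. A probe stayed if its detection p was below 0.05 on 2 or more arrays (18175 probes). One model with 3 line means was fitted per probe (lmFit, eBayes), leaving 3 residual degrees of freedom beside 4.69 from the prior, with Benjamini-Hochberg adjustment over all kept probes and calls under 0.05. The fit was tested on simulated data with independent noise on every array, so deviations shared by same-numbered arrays were not covered. Names follow the RefSeq table of GRCm38.p6 (27760 probes by symbol, 7994 by synonym, 9527 keep the name in the file). Chromosomes of probes are those of the deposited table.

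Members named are those with the 6 smallest p per direction and comparison, the ends of each complex, core subunits and tissue-restricted isoforms. Members of other lists are named where they passed. The regulators, Tfam, cell type markers that did not pass, Cox7a2, Cox6c, Uqcrb and further steady subunits were added after their values were seen. Values of 1 core subunit gene are not reported here. Alternatives covered background, normalisation, filter, 1 probe a gene, arrays in the fit, the replicate number as a block, and each array left out. The deposited normalised log2 value table was not used, because its probe identifiers match none in the table with names. The number of arrays limits the precision.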

Additional observations from a re-analysis of the deposited data

How the results depend on the processing

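No member probe passed in iPS against ES under any of 14 alternatives, with a lowest adjusted p of 0.165. In low iPS against iPS, 1 probe was called with no background correction (Ndufa1, adjusted p = 0.0493) and 1 with a replicate block (Cox7a1, 1.51 ± 0.19, adjusted p = 0.00824), against 0 otherwise. Against ES, low iPS had 1 call with a replicate block (Cox7a1, 1.03 ± 0.19, adjusted p = 0.021). Leaving out each array in turn gave 0 calls in every comparison (range 0 to 0).

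The titles give each line the numbers 1 and 2. The deviations of same-numbered arrays from their line means correlated at 0.30, 0.31 and 0.17 between lines over all kept probes, and at 0.45, 0.29 and 0.34 over the members. No label ties the 2 numbers to a day or batch, so whether same-numbered arrays share one is not known. The main fit treated the arrays as unpaired. The block raised the calls over all probes from 350 to 924, from 724 to 1308 and from 130 to 395 in low iPS against iPS, low iPS against ES and iPS against ES. Without the detection filter those counts were 75, 266 and 39, and with probes detected on all 6 arrays 168, 443 and 63. With only the 4 arrays of both lines, iPS against ES had 73. Leaving out arrays gave 49 to 457, 117 to 755 and 21 to 287.

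The members' median moved beyond the replicate spread of 0.05 under median centring, to 0.18 for low iPS against iPS and to -0.036 for iPS against ES, where the median of all kept probes was 0.07 and -0.09. Leaving out each array gave -0.011 (without iPS replicate 1) to 0.10 in low iPS against iPS, 0.05 to 0.12 in low iPS against ES and -0.02 to 0.08 in iPS against ES. Of the medians by complex, those of complex I in low iPS against iPS and of complexes I, III, IV and V in low iPS against ES kept their sign under all 14 alternatives, as did complex V in iPS against ES. Some of the 14 could not move a median. The block, the fit to the 4 arrays and leaving out an array of the line not compared keep every difference as it is. The cause of the changes under the other settings was not tested. The deposited normalised values could not be run as an alternative.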
